A study of Mus musculus with 14 samples.

Results

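The comparison described here set ribosome footprints of mouse embryonic fibroblasts labelled Torin against those of fibroblasts labelled Scram, gene by gene. Torin1 is an inhibitor of the kinase mTOR in both of its complexes. Ribosome footprints (Ribo-seq) are the mRNA stretches of 25 to 35 nt that a ribosome shields from nuclease. Their number on a coding sequence, set against all footprints of the library, reports its ribosome occupancy relative to other genes. Members were all genes listed in the Torin library or in Scram replicate 2, 11050 of the 14248 genes listed in any of the 14 libraries of the series. Of these, 10277 were listed in both libraries, 503 in Scram replicate 2 only and 270 in Torin only. A difference was taken for the 10128 genes listed in both whose mean level over 4 libraries reached 1 RPKM (reads divided by coding length and by library depth).

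The cells were C57BL/6J fibroblasts, wild-type or knockdown, grown with 10% fetal bovine serum, given either the solvent DMSO or Torin1 (250 nM, 2 h), and lysed with cycloheximide, which stalls ribosomes. The groups were Scram, a control for the knockdowns, METTL3 knockdown (shMETTL3), ABCF1 knockdown (shABCF1) and Torin, with matching RNA-seq of 40 to 60 nt fragments. No source used here says whether the Torin cells carried the Scram hairpin, which libraries received DMSO, or whether replicates were separate cultures, so effects of the hairpin and of Torin1 cannot be told apart. Torin had 1 Ribo-seq library, so the contrast itself has no replicate. Scram replicate 2 was its counterpart because both files, like those of shMETTL3 and shABCF1 replicate 2, list 1 transcript for nearly all genes and hold few genes under 5 reads (1 to 3 per library). These 3 replicate 2 libraries gave the scale of spread between libraries, which includes the effect of the 2 knockdowns.

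mTOR complex 1 phosphorylates the 4E-BP proteins, which otherwise bind the cap-binding factor eIF4E and keep it from joining eIF4G in the complex eIF4F. TOP mRNAs, named for the terminal oligopyrimidine tract at their 5' end, begin with a C and a run of pyrimidines and encode ribosomal proteins and elongation factors. They are the class best known to leave polysomes when mTOR is inhibited. The protein LARP1 binds these starts and also acts under mTOR complex 1.

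The values implied 1764404 footprint reads in Torin, 3855973 in Scram replicate 2, 2482737 in shMETTL3 replicate 2 and 2809178 in shABCF1 replicate 2. Torin was the shallowest library. Fibroblast markers were present, with 11 of 12 listed in each of the 4 libraries, and their summed scaled level was 8688 RPKM in Torin against 12042 to 16364 in the others. Of 10 macrophage markers 7 were unlisted in each of the 4 libraries, Ptprc and Adgre1 among them, and their sum was 27.2 RPKM in Torin and 6.1 to 29.2 RPKM in the others. Of 8 endothelial markers 6 or 7 were unlisted, Pecam1 and Cdh5 among them, with sums of 0.979 to 1.63 RPKM. The epithelial markers summed to 89.5 RPKM in Torin and 214 to 296 RPKM in the others, with Krt18 called lower at -1.58 and 5 of 9 unlisted in Torin. The neural markers summed to 61.0 RPKM in Torin and 44.6 to 83.4 RPKM in the others, with Nes called higher at 1.05. Of the 11 fibroblast markers, 7 had a footprint log2 difference below 0 from Scram replicate 2 and 4 above. Their RNA-seq log2 difference, Torin minus Scram replicate 2, had a median of 0.23. For the 2 epithelial markers with an RNA-seq value the median was 0.05, with Krt18 at 0.15. Whether the lower summed footprint levels of fibroblast and epithelial markers contributed to other differences was not tested. Mettl3 and Abcf1, the genes targeted in the knockdown groups, were at 12.8 and 96.3 RPKM in Scram replicate 2 and at 20.2 and 125 RPKM in Torin.

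Differences are given as log2(scaled RPKM + 1) in Torin minus Scram replicate 2, with libraries first brought to one median over tested genes. A gene was called lower where this was -1 or under and Torin lay below all 3 replicate 2 libraries, and called higher at 1 or over with Torin above all 3. By this rule 390 genes were called lower, 3.85% of those with a difference, and 263 were called higher, 2.6%. Without scaling the median of all genes moved by 0.20 and the counts became 239 lower and 477 higher, so the balance between both directions rests on the scaling. RPKM is itself divided by library depth, so each difference is relative to the other genes of the library. A change in ribosome number shared by all genes would not appear, with or without the scaling. Footprint levels of single genes are RPKM as deposited unless given as scaled. As deposited, the median of tested genes was 26.3 RPKM in Torin and 22.9 RPKM in Scram replicate 2.

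Counts of genes past 2-fold did not by themselves set Torin apart. Among 9870 genes listed in all 4 libraries, 407 were 2-fold lower and 273 were 2-fold higher in Torin, 4.12% and 2.77%. In shMETTL3 replicate 2 against the same Scram library 375 were 2-fold lower and 411 were 2-fold higher, 3.8% and 4.16%, and in shABCF1 replicate 2 the counts were 240 and 209, 2.43% and 2.12%. These comparisons share their control. Among 4880 genes with at least 400 reads over the 4 libraries, a minimum chosen after seeing the data, 251 were 2-fold lower and 60 were 2-fold higher in Torin (5.14% and 1.23%), 155 and 123 in shMETTL3 (3.18% and 2.52%) and 112 and 47 in shABCF1 (2.3% and 0.963%). By the full rule, with all 3 replicate 2 libraries on the other side, these deeper genes gave 245 lower (5.02%) and 54 higher calls (1.11%) in Torin.

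**Figure D1:**
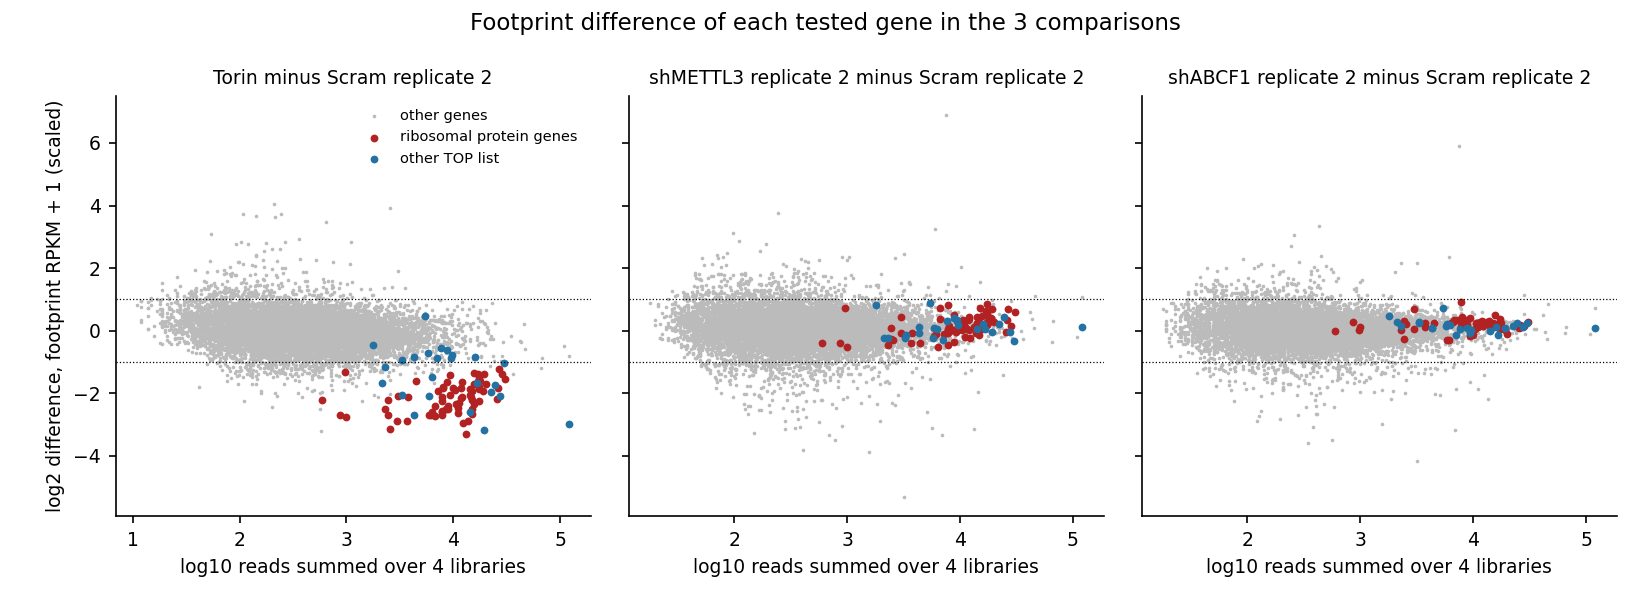
Log2 footprint difference of each gene (y axis) against the log10 of its reads summed over the 4 libraries (x axis), for Torin, shMETTL3 replicate 2 and shABCF1 replicate 2, each minus Scram replicate 2; dotted lines mark 2-fold. In the Torin panel the 70 ribosomal protein genes lie between -3.29 and -1.23, while in the other panels they lie around 0.

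The cytosolic ribosomal protein genes were lower in Torin without exception among those with a difference. All 70 were called lower, against 3.85% of all genes, with a median of -2.14, a 4.42-fold lower level, and a range from -3.29 to -1.23. In shMETTL3 replicate 2 the same 70 genes had a median of 0.11 and a range from -0.54 to 0.87, and in shABCF1 replicate 2 a median of 0.18 and a range from -0.31 to 0.91. No ribosomal protein gene reached -1 in either of these libraries. Together these genes held 2.3% of Torin footprint reads, against 7.79% in Scram replicate 2 and 8.63% in each of shMETTL3 and shABCF1 replicate 2. In the replicate 1 libraries, which were listed by another rule, the share was 5.87% to 7.32%.

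Proteins of the large subunit had a median of -2.17 over 42 genes. Rpl27a (chromosome 7, 109519147 to 109522367, GRCm38) had the lowest difference of all tested genes: it stood at 2987, 3010 and 3562 RPKM in Scram, shMETTL3 and shABCF1 replicate 2 and at 349 RPKM in Torin. Torin was below all 3 others, which lay close together, and the difference was -3.29. The counting interval of its log2 ratio, an exact binomial 95% interval that covers counting error only, ran from -3.48 to -3.12 on 275 Torin reads. Rpl11 (chromosome 4, 136049731 to 136053393), which also binds the p53 regulator Mdm2 outside the ribosome, was at 516, 392 and 583 RPKM in the replicate 2 libraries and 66.5 RPKM in Torin, a difference of -3.14. At the other end Rpl19 (chromosome 11, 98026924 to 98030492) was at 3934, 5920 and 4155 RPKM and at 1930 RPKM in Torin, a difference of -1.23 that fell to -0.45 under quantile normalization and was then not called.

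Proteins of the small subunit, with Rack1 counted among them, had a median of -2.08 over 29 genes. Rps7 (chromosome 12, 28630854 to 28635953) was at 2310, 1831 and 2493 RPKM in the replicate 2 libraries and 342 RPKM in Torin, a difference of -2.95. Rps20 (chromosome 4, 3831334 to 3835665) had a difference of -2.70. Rps6, the substrate of S6 kinase and itself a readout of mTOR signalling, was at 1489, 1750 and 1724 RPKM and at 479 RPKM in Torin, a difference of -1.83. Rps23 was listed at 69.6, 65.3 and 112 RPKM in the replicate 2 libraries and not listed in Torin, so it has no fold. Ribosomal protein genes have many near-identical copies, and no source used here tells how reads with several positions were assigned, so the level of a single gene is less certain than the group. Rpl27-ps3 and Rpl21-ps4, annotated as copies, stood at 118 and 163 RPKM in Scram replicate 2 and at 26.2 and 46.3 RPKM in Torin.

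Pyrimidine runs near the RefSeq starts (GRCm38.p6) are shown because such a run at the first base of the mRNA defines the TOP class. The letters below are 30 bases near the RefSeq start for 7 of the 10 genes with the lowest differences, with a run of C followed only by C or T in capitals. Counted from 0 at the RefSeq start, the runs begin at -4 in Rpl27a, -5 in Eef1a1, 14 in Rpl11, 22 in Rps7, 36 in Rpl39, 28 in Rpl37 and 31 in Rpl9, so they are not shown to be TOP starts. They are written 5' to 3' on the strand of the gene, at chr7:109519183-109519212 (plus) for Rpl27a, chr4:136053358-136053387 (minus) for Rpl11, chr9:78481708-78481737 (minus) for Eef1a1, chr12:28635910-28635939 (minus) for Rps7, chrX:37085173-37085202 (minus) for Rpl39, chr15:5116633-5116662 (plus) for Rpl37 and chr5:65391382-65391411 (minus) for Rpl9.
Rpl27a: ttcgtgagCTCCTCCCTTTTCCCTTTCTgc
Rpl11: ccggaagtCTCCCTCTCTCTTCCTgttctc
Eef1a1: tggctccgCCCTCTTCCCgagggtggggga
Rps7: tgtccccaCCTCTTTTCTTCCgccacccgg
Rpl39: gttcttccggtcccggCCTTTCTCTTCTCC
Rpl37: cgggggtgCTTTCTCTTCCggtctctttgg
Rpl9: cgaaagacgttCTCTCTTTgccccatctac
Rplp0 and Foxa1 are shown for contrast, since no such run was found for either: Rplp0, at -2.90, was among the 10 lowest and Foxa1, at 2.84, among the 10 highest. Their windows are chr5:115559462-115559491 (plus) and chr12:57546087-57546116 (minus).
Rplp0: ttcgaggaccgcctggttctcctataaaag
Foxa1: tgtaggtgcgagcgtctttgtgcggcggac

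A run of at least 8 letters, starting with C and followed by C or T only, began between 30 bases before and 42 bases after a RefSeq start in 39 of 50 ribosomal protein genes with an entry, 78%. Among all 8054 tested genes with an entry 2065 held one, 25.6%. On the opposite strand the shares were 16% and 29.8%. The list of other TOP mRNAs, described below, held a run in 7 of 19 cases, 36.8%. Genes called lower outside the ribosomal protein and other TOP lists held a run in 75 of 238 cases, 31.5%, and genes called higher in 43 of 192, 22.4%. This window and minimum were chosen after seeing the shares under 12 combinations, over which the ribosomal protein share was 22% to 86% and the share of all genes 5.09% to 50.6%, 1.7 to 4.53 times apart. The RefSeq start is often not the transcribed one, and a match is a description of letters, not of a site in use.

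The presence of such letters did not order the footprint differences. Ribosomal protein genes with a run had a median of -2.16 (39 genes) and those without had -2.11 (11 genes). Outside both TOP lists the medians were 0.03 with a run (2019 genes) and 0.01 without (5966 genes). The 236 genes with a run of at least 5 letters at the RefSeq start itself had a median of 0.00, against 0.01 for the 7818 genes with a shorter run or none.

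Elongation factors and other known TOP mRNAs gave a wider spread. Of 25 tested, 14 were called lower (beside 3.85% of all genes) and none higher, with a median of -1.15. This list shares Rack1 with the small subunit list and Eif3e, Eif3f, Eif3h, Eif4b, Eif4a2 and Eif2s3x with the initiation factor lists below. Eef1a1 (chromosome 9, 78478449 to 78481724), the factor that brings aminoacyl-tRNA to the ribosome, had the most reads of all genes in Scram replicate 2, 48604 against 3206 in Torin. It was at 9075, 9235 and 9482 RPKM in the replicate 2 libraries, which lay close together, and at 1308 RPKM in Torin. Its difference was -2.99. Eef2, the translocation factor, was at 861, 937 and 923 RPKM and at 254 RPKM in Torin, a difference of -1.96. Pabpc1, the poly(A)-binding protein, was at 243, 217 and 252 RPKM and at 42.4 RPKM in Torin, a difference of -2.69. Tpt1 (chromosome 14, 75845093 to 75848415), which encodes the tumour protein TCTP, was at 4021, 3616 and 4157 RPKM and at 507 RPKM in Torin, a difference of -3.19. Npm1, the nucleolar chaperone nucleophosmin, had a difference of -1.68 and Ybx1, a cold-shock domain mRNA-binding protein, of -2.09. Vim, the intermediate filament of fibroblasts, was at the edge of the rule with -1.03, and was not called without scaling, under quantile normalization or against the mean of the 3 replicate 2 libraries.

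**Figure D2:**
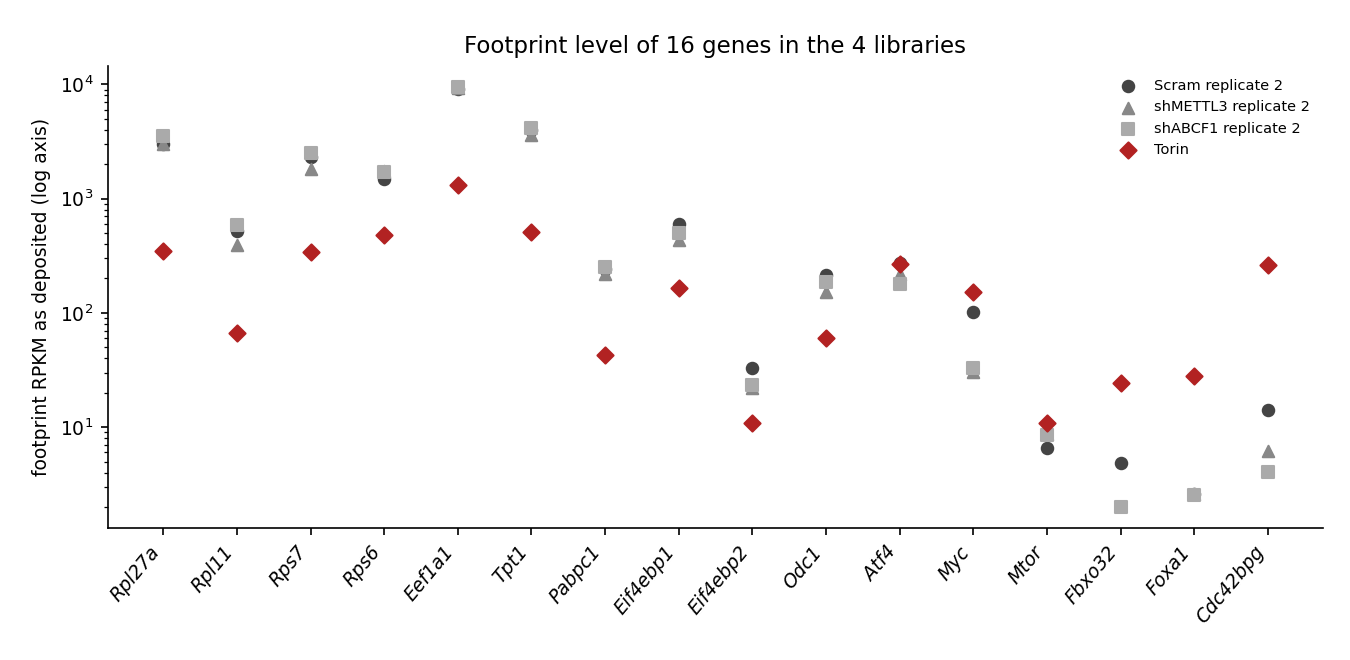
Footprint level in RPKM as deposited (log axis) of 16 named genes in Scram, shMETTL3 and shABCF1 replicate 2 and in Torin, 1 point per library; Fbxo32 has no shMETTL3 point because it was not listed there. Torin lies below the 3 other libraries from Rpl27a to Odc1, and above them for Myc, Mtor, Fbxo32, Foxa1 and Cdc42bpg.

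The same genes showed no such difference in RNA-seq. Over the 70 ribosomal protein genes the RNA-seq difference, Torin minus Scram replicate 2 on the same scale, had a median of 0.06 and ran from -0.64 to 0.44. For the 14 other TOP genes called lower the RNA-seq median was 0.04. Rpl27a had an RNA-seq difference of 0.07, Tpt1 of 0.02, Eef1a1 of 0.21 and Pabpc1 of 0.00. RNA-seq also had 1 Torin library, so this too compares single libraries.

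limma compared Torin with the mean of the 3 replicate 2 libraries, the libraries that share its listing rule, with 2 residual degrees of freedom, and it assumes that the lone Torin library varies like the others. It called 91 genes at an adjusted p of 0.05, 0.898% of those tested, 88 lower (0.869%) and 3 higher (0.0296%), with 1247 at an unadjusted p under 0.05. Of the 88 lower genes, 61 were ribosomal protein genes, which is 61 of 70, and 11 were of the other TOP list, which is 11 of 25. Only 19 of the 10033 genes in neither list were called, 0.189%. In the limma fit Eef1a1 differed by -3.07 (SE 0.20, adjusted p = 0.0178) and Rpl27a by -3.43 (SE 0.22, adjusted p = 0.0178). Rpl19 was not called by limma (adjusted p = 0.162). The count was 0 when Scram replicate 2 or shABCF1 replicate 2 was left out, with 1426 and 637 genes at an unadjusted p under 0.05, and 111 without shMETTL3 replicate 2. Each of those fits has 1 residual degree of freedom. A fit of Torin against Scram over all 7 Ribo-seq libraries had the replicate number as a block, and Torin, whose label carries no number, was placed with replicate 2 for its listing rule. There limma called 76 (0.75%), 68 lower (0.671%) and 8 higher (0.079%), and without the block none, with 114 at an unadjusted p under 0.05.

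The remaining 16 genes that limma called lower included the copies Rpl27-ps3 and Rpl21-ps4, the ribosomal protein paralog Rpl22l1 and Gm8730, Gm10260 and Gm10036, which carry no gene name. The others belonged to varied functions. Nme2, a nucleoside diphosphate kinase, was at 126, 174 and 117 RPKM in the replicate 2 libraries and at 14.8 RPKM in Torin on 12 reads, a difference of -3.19. Ndufa6, a subunit of complex I, was at 528, 464 and 565 RPKM and at 137 RPKM in Torin, a difference of -2.13 (limma -2.15, SE 0.22, adjusted p = 0.0223). Odc1 (chromosome 12, 17544794 to 17551084), the first enzyme of polyamine synthesis, was at 215, 153 and 188 RPKM and at 60.5 RPKM in Torin, a difference of -2.01 (limma adjusted p = 0.0476). Hras, the small GTPase, was at 35.9, 41.0 and 47.5 RPKM and at 8.95 RPKM in Torin on 9 reads (limma adjusted p = 0.035). Hras, Ndufa6, Odc1 and Nme2 had RNA-seq differences of -0.12, -0.16, -0.11 and -0.12.

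**Figure D3:**
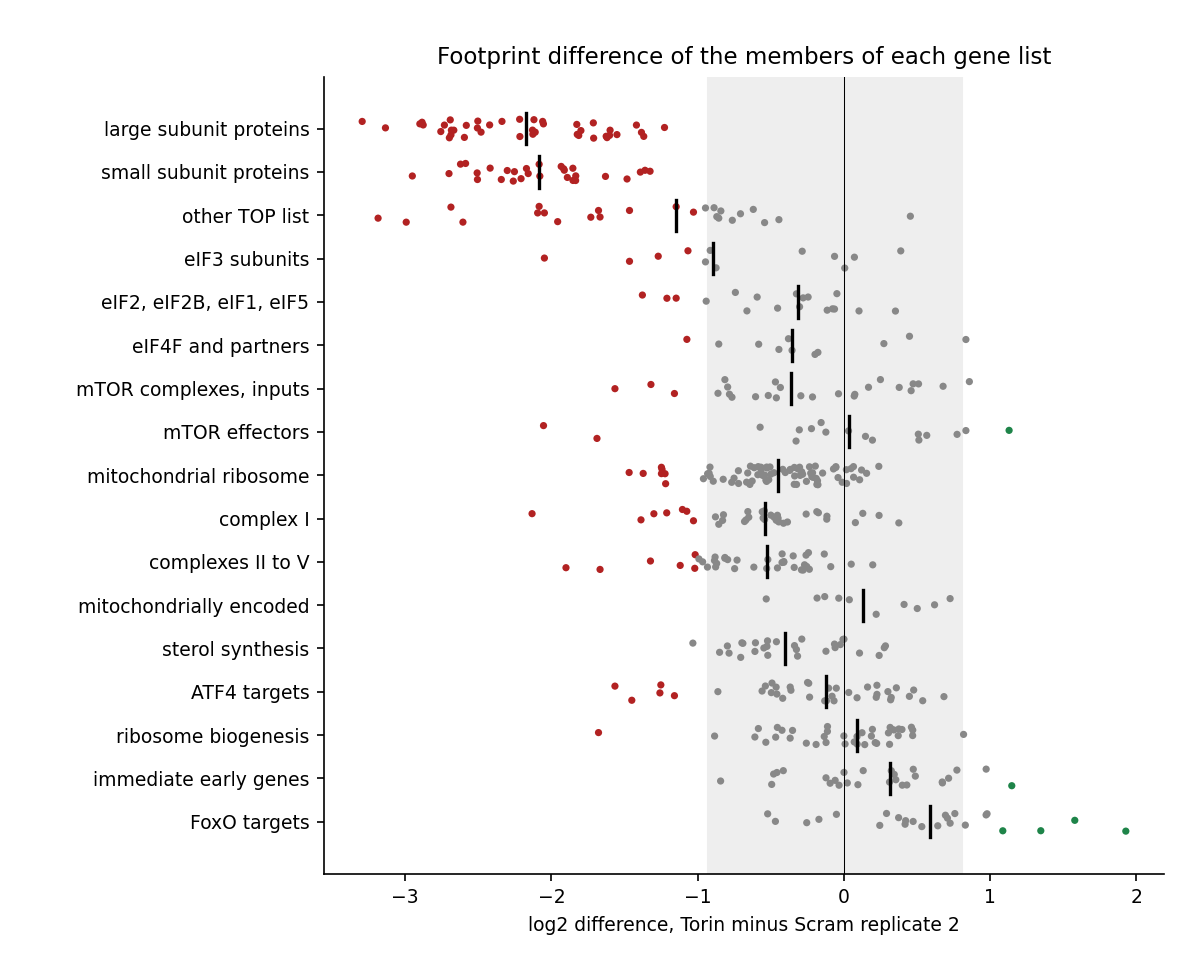
Log2 footprint difference, Torin minus Scram replicate 2 (x axis), of each tested member of 17 gene lists (rows), with members called lower in red, called higher in green, not called in grey, and the list median as a black bar; the grey band spans the 5th to 95th percentile of all tested genes listed in the 4 libraries, -0.93 to 0.81. All large and small subunit points lie left of the band, and the FoxO list has 4 called members on its right.

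Factors that act under mTOR complex 1, directly or not, had 2 of 17 called lower (beside 3.85% of all genes) and 1 higher (beside 2.6%), with a median of 0.03. Eif4ebp1 (chromosome 8, 27260329 to 27276674), which encodes 4E-BP1, was at 605, 434 and 501 RPKM in the replicate 2 libraries and at 166 RPKM in Torin, a difference of -2.05 (limma -1.85, SE 0.25, adjusted p = 0.0373). Eif4ebp2 was at 32.9, 22.2 and 23.5 RPKM and at 10.9 RPKM on 7 Torin reads, a difference of -1.69 with a counting interval from -3.18 to -0.63. Their RNA-seq differences were also negative, at -0.67 and -0.61. Maf1, the repressor of RNA polymerase III that mTOR holds in check, was called higher with 58.1, 93.3 and 69.2 RPKM in the replicate 2 libraries and 147 RPKM in Torin. Larp1, Rps6kb1 and Atf4 had differences of -0.12, -0.33 and -0.22 and were not called.

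Among 26 genes of the mTOR complexes and their inputs, 3 were called lower (beside 3.85% of all genes) and none higher, with a median of -0.36 that was -0.18 without scaling. Mtor itself was at 6.58, 8.63 and 8.56 RPKM and at 10.8 RPKM in Torin, and its partner subunits Rptor and Rictor had differences of 0.86 and 0.47. None of the 3 was called. Tbc1d7, a subunit of the TSC complex, was called lower with -1.32. Ddit4 and Sesn2, both stress-induced inhibitors of mTOR complex 1, had differences of -1.57 and -1.16. For Ddit4 the Scram library stood apart: it was at 71.8 RPKM there but at 32.7 and 24.8 RPKM in shMETTL3 and shABCF1 replicate 2, next to 27.1 RPKM in Torin. These are levels as deposited, and after scaling Torin lay below all 3, so Ddit4 was called lower. Against the mean of the 3 libraries its difference was -0.74 and not called.

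Among initiation factors the eIF3 list had the lowest median. In eIF3, the scaffold that brings the small subunit to mRNA, 4 of 12 subunits were called lower (beside 3.85% of all genes) and none higher, with a median of -0.89. Eif3f and Eif3h, which are 2 of the 4, also count in the other TOP list. Eif3f was lowest at -2.05 (317, 249 and 368 RPKM in the replicate 2 libraries and 87.2 RPKM in Torin), followed by Eif3h at -1.47, Eif3k at -1.27 and Eif3i at -1.07. The largest subunit, Eif3a, had a difference of 0.39. limma called Eif3f and Eif3h (adjusted p = 0.0373 and 0.0476). In the list of cap-binding factors and their cofactors 1 of 11 was called lower, Mknk2, a kinase of eIF4E, at -1.07, while Eif4a1, the helicase, was at -0.18. Among eIF2, eIF2B and start-site factors 3 of 18 were called lower: Eif1 at -1.21, Denr at -1.38 and Eif2s3x at -1.15.

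Nuclear genes of mitochondria had medians below 0 but smaller than those of the TOP lists. Mitochondrial ribosomal proteins had 7 of 78 called lower, none higher and a median of -0.45, with 69 of 78 below 0. Of all genes 3.85% were called lower, and of genes of 300 to 600 nt outside the ribosomal proteins, the length of this list, 11.3%. Complex I had 7 of 36 called lower with a median of -0.54, and complexes II to V 6 of 39 with a median of -0.53. Under quantile normalization these 3 medians were -0.25, -0.24 and -0.15, and without scaling -0.25, -0.34 and -0.33. Mrpl32 and Mrps15 were lowest among the ribosomal proteins at -1.47 and -1.37, and Cox7a2l and Atp5g1 among complexes II to V at -1.90 and -1.67. The 10 tested genes of the mitochondrial genome, translated inside the organelle, had no call and a median of 0.13, beside an RNA-seq median of -0.35. The median was 0.67 against the mean of the 3 replicate 2 libraries and 0.53 under quantile normalization, and shMETTL3 and shABCF1 replicate 2 themselves had medians of -0.997 and -0.551 against Scram. mt-Co1 was at 1074, 815 and 706 RPKM in the replicate 2 libraries and at 1642 RPKM in Torin, and mt-Nd6 at 785, 827 and 496 RPKM and at 1493 RPKM in Torin. Under quantile normalization their differences were 1.15 and 1.46, past the rule, against 0.41 and 0.73.

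Footprint differences in Torin followed coding length. Median differences were -0.49 for coding sequences of up to 300 nt (171 genes), -0.38 from there to 600 nt (1071 genes), -0.20 to 1000 nt, 0.01 to 2000 nt, 0.20 to 4000 nt and 0.32 over 4000 nt (747 genes). The share called lower fell over the same bins from 16.4% to 0.402%. Without ribosomal protein genes the first 2 medians were -0.45 and -0.35. Across 10111 genes, which share libraries and are not independent, Pearson's r between coding length and the Torin difference was 0.29. The same coefficient was 0.054 for shMETTL3 replicate 2, 0.105 for shABCF1 replicate 2 and 0.0579 for the Torin RNA-seq difference. Length, 5' UTR length and GC content were looked at after the differences were known, and Pearson's r was 0.121 for 5' UTR length and 0.118 for GC content.

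**Figure D4:**
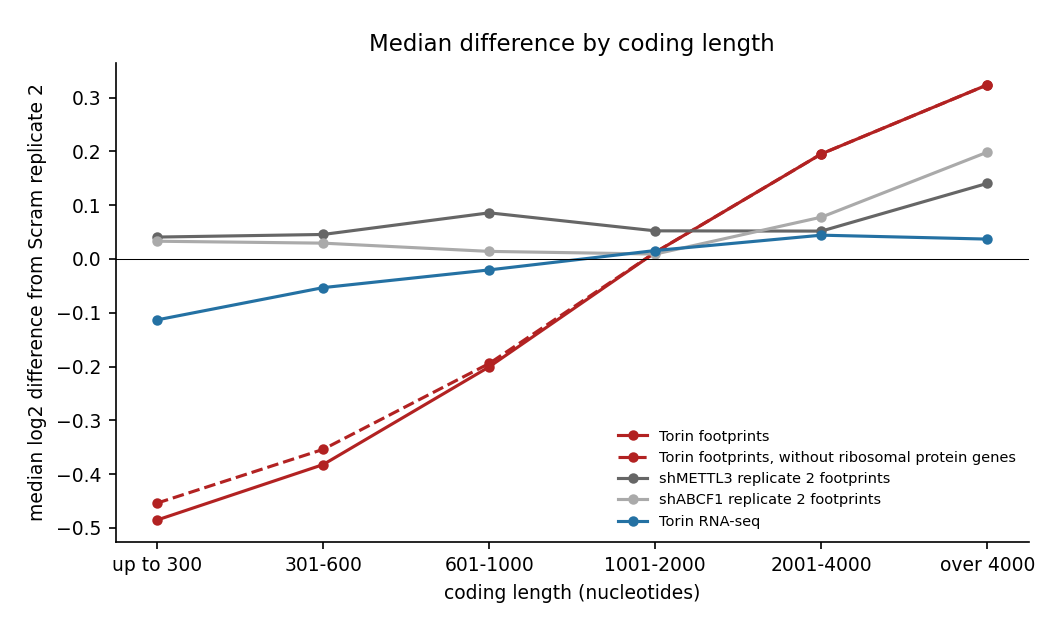
Median log2 difference from Scram replicate 2 (y axis) in 6 bins of coding length in nucleotides (x axis) for Torin footprints, with and without ribosomal protein genes, for shMETTL3 and shABCF1 replicate 2 footprints and for Torin RNA-seq. The Torin footprint line goes from -0.49 to 0.32, while the other libraries stay between -0.11 and 0.20.

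The order by length held within each tertile of GC content, with medians of -0.45, -0.10 and 0.15 for coding sequences of up to 600, 600 to 2000 and over 2000 nt in the lowest tertile and -0.25, 0.04 and 0.30 in the highest. The lists can be read against it. Ribosomal proteins of the large subunit have a median coding length of 478.5 nt, and the other genes of 300 to 600 nt had a median difference of -0.35 beside their -2.17. The 25 other TOP genes, with a median length of 1227 nt, had -1.15 beside 0.01 for genes of 1000 to 2000 nt, and eIF3 had -0.89 beside the same value. Mitochondrial ribosomal proteins (median length 597 nt) had -0.45 and complex I (453 nt) -0.54 beside -0.35, so these lists lay closer to other genes of their length than the TOP lists did.

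Genes called higher had few reads. Their median was 31 in Scram replicate 2 and 54 in Torin, against 273 and 58 for genes called lower. Over all tested genes the medians were 130 and 69. The calls use these same 2 libraries, so part of this contrast follows from the rule. Of the 263 genes called higher, 184 had under 100 reads in both libraries. Their RNA-seq difference had a median of 0.28 over the 171 with an RNA-seq value, and 15 of these were 2-fold higher in RNA. Cdc42bpg (chromosome 19, 6306456 to 6325652), a kinase that acts with Cdc42, had the most Torin reads of the 10 highest: it was at 14.3, 6.14 and 4.05 RPKM in the replicate 2 libraries and at 263 RPKM in Torin, a difference of 3.91 (limma 4.77, SE 0.60, adjusted p = 0.0336), with an RNA-seq difference of -0.25. Foxa1 (chromosome 12, 57540628 to 57546121), a forkhead factor not usually counted among fibroblast genes, was at 2.58, 2.58 and 2.53 RPKM and at 28.2 RPKM in Torin on 70 reads (limma adjusted p = 0.0274). Klhdc8a, the only other gene that limma called higher, was at 4.43, 4.59 and 4.73 RPKM and at 40.9 RPKM in Torin. Srrm3 (chromosome 5, 135818106 to 135874772), at 1.47, 5.38 and 2.92 RPKM and at 45.7 RPKM in Torin, had the largest difference, 4.06, on 11 Scram reads, and its limma adjusted p was 0.104. Rccd1, Gm13889, Rec114, Gykl1, Asphd2, Oxld1 and Larp1b completed the 10 highest, with differences from 2.83 to 3.74.

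**Figure D5:**
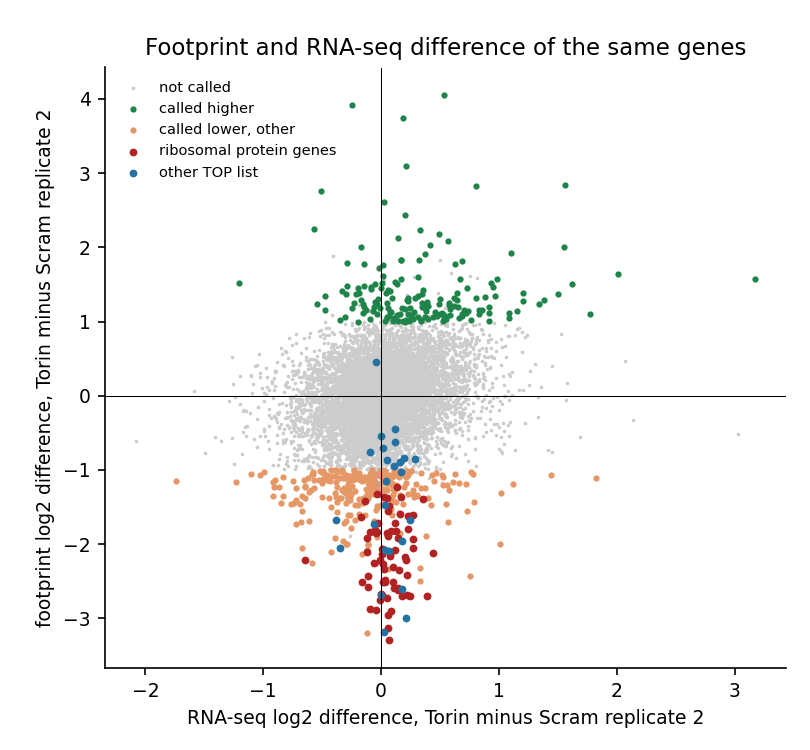
Footprint log2 difference (y axis) against RNA-seq log2 difference (x axis), both Torin minus Scram replicate 2, for the 8902 tested genes with both values; colours mark ribosomal protein genes, the other TOP list, other genes called lower and genes called higher. Ribosomal protein genes lie in a column near an RNA-seq difference of 0, from -3.29 to -1.23 in footprints.

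Targets of FoxO factors, which leave the nucleus when Akt is active, and growth-factor feedback genes were the list with the highest median, 0.59 over 24 tested genes, with 4 called higher (beside 2.6% of all genes) and none lower. Its median stayed between 0.59 and 0.79 without scaling, under quantile normalization and against the mean of the 3 libraries. It was not the highest against that mean. There the FoxO list had 0.657, below immediate early genes (1.38), inflammatory genes under NF-kB (0.678) and mitochondrially encoded genes (0.665). Fbxo32, a ubiquitin ligase of muscle wasting, was at 4.86 RPKM in Scram, unlisted in shMETTL3, at 2.00 RPKM in shABCF1 and at 24.4 RPKM in Torin, a difference of 1.93. Txnip, the thioredoxin-binding inhibitor of glucose uptake, was at 40.8, 37.1 and 40.5 RPKM and at 142 RPKM in Torin, a difference of 1.58 (limma adjusted p = 0.0654). The other two were Irs2, an insulin receptor substrate, at 1.35, and Pik3ip1, an inhibitor of PI3K, at 1.09, both named after their values were seen. RNA-seq moved the same way in this list, with a median of 0.41 over 23 genes, 1.10 for Fbxo32 and 0.98 for Txnip.

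The growth and survival mRNAs listed as sensitive to eIF4E had 2 of 20 called lower (beside 3.85% of all genes) and 1 higher (beside 2.6%), with a median of 0.06. Odc1, described above, and Ccnd3, at -1.26, were lower. Pim1, a survival kinase, was higher at 1.37, beside scaled RNA-seq levels of 19.0 RPKM in Scram replicate 2 and 55.6 RPKM in Torin. Ccnd1, cyclin D1, was at 178, 153 and 208 RPKM in the replicate 2 libraries and at 135 RPKM in Torin, and was not called. Myc was at 101 RPKM in Scram, 30.1 and 32.6 RPKM in shMETTL3 and shABCF1 and 153 RPKM in Torin. Its difference was therefore 0.40 from Scram replicate 2 and 1.46 from the mean of the 3 libraries, which is past the rule.

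Immediate early genes shared that dependence on the control library. Their median was 0.31 over 27 genes against Scram replicate 2, with Ier5 the only call at 1.15, and 1.38 against the mean of the 3 libraries. Junb was at 284, 63.0 and 125 RPKM in Scram, shMETTL3 and shABCF1 and at 642 RPKM in Torin, and Ier3 at 1481, 225 and 347 RPKM and at 1819 RPKM in Torin. For Ier3 the Torin and Scram libraries lay side by side and the knockdown libraries were the lower ones.

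Of 38 targets of ATF4, a factor that mTOR complex 1 also controls, 5 were called lower (beside 3.85% of all genes) and none higher, with a median of -0.13 that turned positive without scaling (0.07), under quantile normalization (0.04) and against the mean of the 3 libraries (0.13). Chac1 (-1.45) and Mthfd2 (-1.25), a mitochondrial folate enzyme, were among them, as were Ddit4 and Sesn2, described above. Sterol synthesis genes had no call and a median of -0.40, beside -0.27 in RNA-seq, and the median was -0.09 against the mean of the 3 libraries. Lysosome and autophagy genes had 2 of 38 called lower, a share near that of all genes, Npc2 at -1.32 and Mcoln1 at -1.20, and the proteasome none of 31 with a median of -0.30, which was -0.02 under quantile normalization. Genes of ribosome biogenesis, unlike the ribosomal proteins, had 1 of 39 called lower (Npm1) and a median of 0.09, which was -0.01 against the mean of the 3 libraries.

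Genes listed on 1 side only have no fold. Besides Rps23, the most abundant in Scram replicate 2 were Hist1h2ap, at 76.5, 22.5 and 46.2 RPKM in the replicate 2 libraries, and Atp5g2, at 31.2 RPKM in Scram and 28.3 RPKM in shABCF1. On the Torin side Mblac1 was at 101 RPKM in Torin and at 13.9 and 20.5 RPKM in shMETTL3 and shABCF1, Apold1 at 40.5 RPKM in Torin and 7.07 RPKM in shMETTL3, and Opn3 at 39.1 RPKM in Torin beside 15.4 and 10.9 RPKM in shMETTL3 and shABCF1. An unlisted gene may have had up to 4 reads or may have been counted on another transcript.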

How the data were processed

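The authors trimmed reads with cutadapt and aligned them to GRCm38 using Bowtie, per the submitters' processing notes. Versions, annotation, read minimum and handling of multiply mapping reads: not given in the sources used here. The deposited values are RPKM per Ensembl transcript, already divided by length and depth. Multiplied by GENCODE M21 coding length they were whole multiples of 1 step for 98.7% to 98.8% of Ribo-seq values, within 0.02 of a read, and this step gave reads and depth; its precision is limited by the 1764404 reads of Torin. Transcripts were matched to GENCODE M21 symbols (11355 matched and 32 unmatched in the 4 libraries), and 1 transcript was kept for 7 genes that had several. Tested genes unlisted in any other library under the kept transcript were set to 0 in the fits and in the range rule. This includes the replicate 1 libraries in the fits over 7 libraries, where a gene may be listed under another transcript. The effect of these zeros on those fits was not tested.

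Libraries were then scaled so that tested genes had one median, and log2(scaled RPKM + 1) was used. Torin has 1 library, so any fit takes its spread from the other libraries. limma 3.58.1 (R 4.3.3, lmFit and eBayes with trend, Benjamini-Hochberg over all 10128 genes) compared Torin with the 3 replicate 2 libraries. Differences understate the change of low genes. Deviations of equal replicate numbers from their group means correlated at 0.94 to 0.96 between groups. Replicate numbers also divide these libraries by listing rule, so this correlation cannot show that equal numbers share a culture or a batch. The limma p-values measure only the spread between libraries, which may be partly technical. In the fit against the 3 replicate 2 libraries this spread also includes the effects of the knockdowns, since each library is of another group.

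Named genes were the 10 lowest and 10 highest called genes with a mean of at least 10 RPKM over Torin and Scram replicate 2 (which a gene can pass through Torin alone), the 3 most abundant genes listed on each side only, the 2 most abundant and 2 most different members of each list described, and 19 set genes. Members, lists and rule were chosen with earlier results of these data known; a gene named outside this rule was chosen after its value was seen. The read minimum of 400, the transcript features and the run settings were added after seeing the data. Alternatives were the pseudocount, scaling, level minimum, control, fold, libraries and transcript choice.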

Additional observations from a re-analysis of the deposited data

How the results depend on the processing

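The 390 lower and 263 higher calls became 239 and 477 without scaling, 1158 and 890 at 1.5-fold, and 64 and 35 at 4-fold. Against the mean of both Scram replicates, of which replicate 1 was listed by another rule with unlisted genes set to 0, they were 1046 and 741. With at least 400 reads and the scaling redone on those genes they were 186 and 77. Higher calls were 102 with a pseudocount of 5 and 126 with at least 10 RPKM. Against the mean of the 3 replicate 2 libraries 415 genes were called lower and 413 higher. Of these, 293 were among the 390 and 168 among the 263. Under quantile normalization 378 were called lower and 270 higher, with 307 and 199 shared in the same way. Leaving out shMETTL3 or shABCF1 replicate 2 gave 392 to 403 lower and 271 to 287 higher calls. The limma count of 91 was 54 without scaling and 0 to 111 when 1 replicate 2 library was left out. With 7 libraries and the replicate block limma called 76, of which 67 were shared with the 91, and without the replicate block 0, with 114 at an unadjusted p under 0.05. The large subunit median was -1.97 without scaling and -1.81 under quantile normalization, the small subunit median -1.88 and -1.47, and that of the other TOP list -0.95 and -0.97. The median of genes with a run of at least 5 letters was 0.0228 with a start within 5 bases. No alternative reversed a called gene among those tried on the named genes. Except where fewer genes or samples entered by construction, the cause was not tested.

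The contrast rests on 1 Torin library, and its 1764404 reads limit genes of low level most. Of the genes called lower 90 had under 100 reads in both libraries, and of those called higher 184. The counting interval lay past 0 for 380 of the 390 and 257 of the 263. These genes were called on the same counts, so an interval past 0 follows largely from the rule. Genes without a coding length have no interval and were counted as not past 0.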

Other observations

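Of 15 genes of cytoplasmic actins, tubulins and vimentin, abundant products of fibroblasts, 4 were called lower (beside 3.85% of all genes), among them Actg1 at -1.20 and Tuba1b at -1.37, while Actb was at -0.49. Collagen chains gave no call against Scram replicate 2, with a median of 0.05 and 8 of 15 above 0. Col1a1 was at 1925, 3802 and 3087 RPKM in Scram, shMETTL3 and shABCF1 replicate 2 and at 1263 RPKM in Torin. Against the mean of the 3 libraries the collagen median was -0.33, and Col1a1, Col1a2 and Col3a1, the lowest 3 of the list against Scram replicate 2, were at -1.41, -1.24 and -1.51. At its other end Col5a2 and Col8a1 had differences of 0.78 and 0.77 from Scram replicate 2. Of 30 other matrix genes 2 were called lower around a median of -0.03. Timp1, an inhibitor of matrix proteases, was called lower at -1.46, beside an RNA-seq difference of -0.77, and Lgals1, a secreted lectin, at -1.14.

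Chaperones differed within their lists. Hspa8, the constitutive Hsp70, was at 1986, 1523 and 2008 RPKM in the replicate 2 libraries and at 878 RPKM in Torin, a difference of -1.38, and Dnajb1, its partner, had -1.16 beside -1.23 in RNA-seq. Pdia3, a disulfide isomerase of the endoplasmic reticulum, had 0.88 and P4hb, of the same family, -0.81, and neither was called. Replication histones had 2 of 25 called lower (beside 3.85% of all genes), Hist2h3b at -1.99 and Hist1h1e at -1.09. Their RNA-seq differences were 1.01 and -0.14, and the histone RNA-seq median was 0.35 over 24 genes. How reads with several positions were assigned is unknown here too, so single histone, actin and tubulin genes are also less certain. The histone genes had a median coding length of 393 nt, and of genes of 300 to 600 nt outside the ribosomal proteins 11.3% were called lower. The histone footprint median was 0.22, and -0.05 against the mean of the 3 libraries.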
